A study of Mus musculus with 2 samples.

Results

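Alpha beta T cells were chosen by their RNA counts from single-cell transcriptomes of mouse dorsal skin. A cell was taken when it had at least 1 count of the CD3 chain genes Cd3d, Cd3e and Cd3g together, at least 1 count of Trac, which encodes the constant region of the T cell receptor alpha chain, and no count of Trdc, the delta chain constant gene. It also had no count of Cd163l1 or 5830411N06Rik, scavenger receptor genes of gamma delta T cells, and at most 2 counts of the myeloid gene Lyz2. These counts define the cells and are not results. The rule took 305 of 18965 retained cells, 64 of 7946 in the SBM library and 241 of 11019 in the IMQ library. SBM skin was given Shi-Bi-Man together with imiquimod, and IMQ skin was given imiquimod. Both libraries came from C57BL/6 mice aged 7 weeks. Imiquimod is a Toll-like receptor agonist whose repeated application gives mouse skin a psoriasis-like inflammation, and Shi-Bi-Man is the natural product under study. Imiquimod is shared by both groups, and skin without it is not analysed here. Each group was 1 library, so no difference between the groups could be tested. All intervals are exact 95% intervals that cover counting error only, not the spread between animals. Those of CPM and of gene and list ratios treat each count as separate, so they also leave out the spread between cells.

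Alpha beta T cells recognise peptides held by MHC molecules. CD4 cells bind MHC class II and include helper cells of the interferon-gamma, IL-4 and IL-17 kinds and the regulatory cells that carry Foxp3, while CD8 cells bind MHC class I and kill target cells with perforin and granzymes. In skin many of them stay as resident memory cells, held in the epidermis by the integrin that Itgae helps encode. In the mouse imiquimod model, gamma delta T cells are known as a large source of IL-17, and alpha beta T cells are the smaller group.

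The cells were shallow. Those of the SBM library held 82914 counts with a median of 820.5 counts and 501.5 genes per cell, and those of the IMQ library held 375604 counts with medians of 1074 counts and 660 genes. In the SBM library the 2 deepest cells, with 10662 and 8386 counts, held 23.0% of the counts of these cells, and in the IMQ library the 2 deepest, with 14907 and 8969, held 6.36%. The 2 deepest SBM cells also carried keratin counts, 34 of Krt14 in one and 17 of Krt14 and 46 of Krt5 in the other. In the IMQ library the deepest cell had 97 counts of Krt14, and the second deepest had 160 of the collagen gene Col1a1. The libraries shared 49 cell barcodes, none of them in an alpha beta T cell. A doublet caller marked 83 of 7946 cells (1.04%) and 0 of 11019, so it cannot be said to have worked in the IMQ library, and it marked no alpha beta T cell in either. Levels below are CPM, counts scaled to a total of 1e+06 over the summed counts of these cells, and ratios are log2 values, SBM over IMQ, with 0.5 added to each count.

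Genes outside the rule were checked against the T cell label. Trbc1 or Trbc2, the beta chain constant genes, had a count in 48 of 64 SBM cells (75.0%) and in 189 of 241 IMQ cells (78.4%). In the GRCm38 annotation Trac lies on the plus strand of chromosome 14 at 54220521 to 54224206, within the locus that also holds the delta chain genes, and Trbc2 on the plus strand of chromosome 6 at 41546730 to 41548352. Beta chain transcripts do not separate the lineages by themselves, since 107 of 273 (39.2%) and 1006 of 1766 (57.0%) of the cells with Cd3 and Trdc counts, called gamma delta T cells here, had them too. Cd2, an adhesion receptor gene, stood at 748 and 636 CPM and Ms4a4b, a T cell membrane protein gene, at 1013 and 626 CPM. In gamma delta T cells Ms4a4b stood at 24.6 and 49.6 CPM. Fibroblasts served as the measure of free RNA: Trbc2 had a count in 56.2% of the alpha beta T cells of SBM skin and 63.5% of those of IMQ skin, against 3.36% and 1.55% of fibroblasts, whose median depths of 1987 and 1701 counts were greater.

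The gamma chain constant genes Trgc1, Trgc2 and Trgc4 had a count in 4 of the 64 SBM alpha beta T cells (6.25%) and in 41 of the 241 IMQ ones, against 68.9% and 81.0% of gamma delta T cells. The rule sits near the detection limit. Trac was at exactly 1 count in 30 cells of SBM skin and in 109 of IMQ skin, while 224 (39.6%) and 755 (26.7%) of the cells with a Cd3 count had neither Trac nor Trdc and were left out. A further 15 and 47 cells failed only for a Trdc count, 3 and 30 only for Cd163l1 or 5830411N06Rik, 0 and 3 only for Lyz2, and 64 and 105 only for lack of a Cd3 count.

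Of retained cells, alpha beta T cells made up 0.805% (0.621% to 1.03%) in SBM skin and 2.19% (1.92% to 2.48%) in IMQ skin, a log2 ratio of -1.43 (-1.86 to -1.04). Within T cells the order turned round. They were 64 of 565 cells with a Cd3 count (11.3%, 8.83% to 14.2%) in SBM skin and 241 of 2823 (8.54%, 7.53% to 9.63%) in IMQ skin, a log2 ratio of 0.42 whose interval, -0.01 to 0.81, included 0. Among cells with a count of Ptprc, the pan-leukocyte gene CD45, 47 of 1061 (4.43%) and 180 of 3554 (5.06%) were alpha beta T cells. Gamma delta T cells numbered 273 in SBM skin and 1766 in IMQ skin. How many other skin cells each preparation yielded also enters the share of all cells, and its part was not tested.

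Cd4 and Cd8 transcripts were sparse. Cd4-type cells, with a Cd4 count and none of Cd8a or Cd8b1, numbered 5 of 64 (7.81%) in SBM skin and 24 of 241 (9.96%) in IMQ skin. Cd8-type cells, with Cd8a or Cd8b1 and no Cd4, numbered 7 (10.9%) and 35 (14.5%). Most cells, 52 and 181, had a count of none of these genes, and 0 and 1 had both kinds. After each cell was thinned to 500 counts, Cd4-type cells numbered 3 (4.69%) and 14 (5.81%) and Cd8-type cells 4 (6.25%) and 24 (9.96%), and the log2 ratios of -0.14 (-2.75 to 1.53) and -0.53 (-2.66 to 0.87) both had intervals that included 0. Fibroblasts held next to none of these counts: Cd4 was found in 3 of 1755 and 0 of 969 fibroblasts and Cd8b1 in none of either. At 3 counts of the total, a count of 0 allows shares of fibroblasts with a Cd8b1 count of up to 0.171% in SBM skin and 0.310% in IMQ skin.

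**Figure D1:**
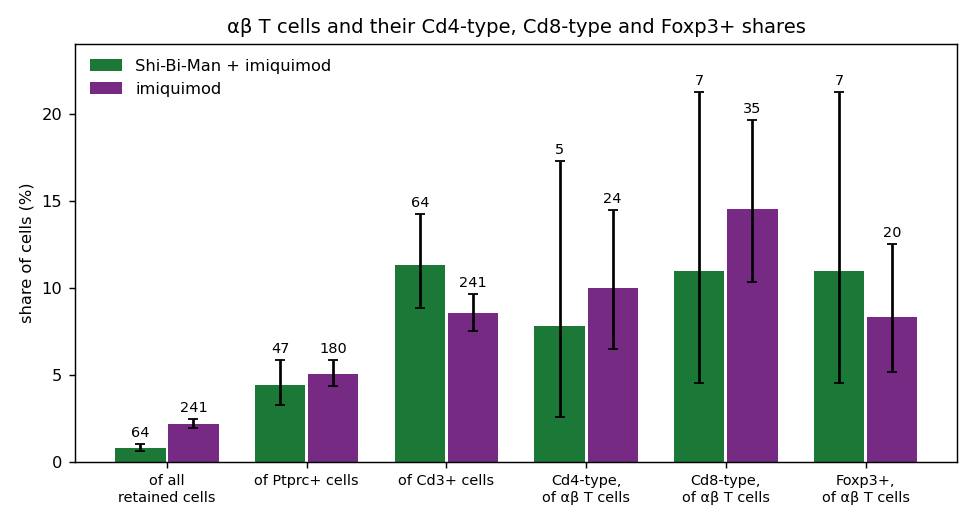
Shares of cells (percent, y axis) in the SBM library (Shi-Bi-Man + imiquimod, green) and the IMQ library (imiquimod, purple), with exact 95% binomial intervals and the number of cells above each bar. Alpha beta T cells took 0.805% and 2.19% of retained cells, while their intervals overlapped among Cd3+ cells, and the Cd4-type, Cd8-type and Foxp3+ shares of alpha beta T cells overlapped as well.

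The genes picked for the largest ratios between Cd4-type and Cd8-type cells are given as a description, from 5 and 7 cells in SBM skin and 24 and 35 in IMQ skin. Ccl5, a chemokine gene of memory and killer T cells, stood at 487 CPM in Cd4-type and 5285 CPM in Cd8-type cells in SBM skin, and at 0 CPM in Cd4-type and 6721 CPM in Cd8-type cells in IMQ skin. Nkg7, a granule membrane protein gene, stood at 487 CPM in Cd4-type and 2373 CPM in Cd8-type cells in SBM skin, and at 233 CPM and 2943 CPM in IMQ skin. The other genes picked as lowest in Cd4-type over Cd8-type cells were Ccl4, Ctsw, Emp1 and Ly6c2. In the other direction Il17a was at 3087 CPM in Cd4-type and 108 CPM in Cd8-type cells in SBM skin, where 1 cell of each type had it, and at 2060 and 167 CPM in IMQ skin, where 7 of 24 Cd4-type cells had it. Tnfrsf4, the costimulatory receptor gene OX40, stood at 1137 and 324 CPM, and at 1229 and 125 CPM, in the same order. Pkm, Cited2, Capg and Il17f completed the genes higher in Cd4-type cells. Gzmb lay closer, at 162 CPM in Cd4-type and 108 CPM in Cd8-type cells in SBM skin, from 1 count in each, and at 299 and 376 CPM in IMQ skin. Not all other effector genes did. Ifng stood at 162 and 1079 CPM in SBM skin, with counts in 1 cell of each type, and most Gzma counts of IMQ skin lay in Cd8-type cells, as given below.

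Over all genes with at least 20 counts in both libraries together, 319 of 4053 (7.87%) were higher in SBM skin by 2-fold or more and 474 (11.7%) were lower, 19.6% either way, with a median log2 ratio of -0.01. The split depended on the scaling: with TMM factors 205 were higher and 637 lower, and with DESeq2 size factors 205 and 653, as these moved the median of all genes to -0.17 and -0.19. The gene lists below are read against these shares and have no test.

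Cytotoxic and type 1 genes had the largest summed difference among lists with at least 10 measured genes. Their summed level was 10469 CPM in SBM skin and 6494 CPM in IMQ skin, a log2 ratio of 0.69 (0.58 to 0.80). Of 20 measured genes 6 were higher and 4 lower by 2-fold or more, with a median of 0.10, so the list did not move one way. The summed ratio was 0.42 with a Trbc1 or Trbc2 count required, 1.13 with at least 2 Trac counts and 1.05 without the 2 deepest SBM cells. That last setting kept all 241 IMQ cells and lowered only the SBM total, from 82914 to 63866 counts. It therefore raises the SBM level of any gene that those 2 cells lacked. With cells of at most 5000 counts kept in both libraries, 62 and 232, the summed ratio was 0.80.

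Ccl5 was the gene of the list with the highest level in both libraries, with 4547 CPM in 23 of 64 cells in SBM skin and 1472 CPM in 67 of 241 cells in IMQ skin, a log2 ratio of 1.63 (1.43 to 1.82). Cells with a count were 35.9% and 27.8%, against 2.34% and 1.75% of fibroblasts. Gzma, the granzyme A gene, stood at 844 CPM in 6 cells and 229 CPM in 11 cells (1.88, 1.41 to 2.35). Gzmb, the granzyme B gene, stood at 350 CPM in 9 cells and 173 CPM in 31 cells (1.03, 0.33 to 1.67). Ifng, the interferon-gamma gene, stood at 362 CPM in 11 cells and 93.2 CPM in 22 cells (1.96, 1.20 to 2.70). All 4 were higher in the SBM cells, each from few cells. Ccl4 (log2 ratio 2.68) and Ccl3 (1.51), chemokine genes, were the other genes past 2-fold, and 81.5% of the Ccl4 counts in SBM skin lay in 1 cell.

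Other genes of the list were lower in SBM skin. Gzmc, the granzyme C gene, stood at 84.4 CPM in 3 of 64 cells in SBM skin and 663 CPM in 29 of 241 cells in IMQ skin (-2.88, -4.30 to -1.91). Xcl1, a chemokine gene, stood at 60.3 CPM in 4 cells and 437 CPM in 41 cells (-2.72, -4.50 to -1.60). Klrd1, the CD94 receptor gene, had 1 count and 53 counts (-2.98, -8.88 to -1.01), and Ctsw, the cathepsin W gene, stood at 265 and 772 CPM (-1.51, -2.24 to -0.91). Nkg7 was close in both, at 1278 and 1179 CPM (0.12, -0.20 to 0.43), in 27 and 118 cells. Tbx21, the type 1 master regulator T-bet, was at 84.4 and 90.5 CPM.

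The cells that carried these genes overlapped in part. Every cell with Gzma also had Ccl5, 6 of 6 in SBM skin and 11 of 11 in IMQ skin. Cd8-type cells made up 0 of the 6 Gzma-bearing cells in SBM skin and 9 of the 11 in IMQ skin, where they held 78 of 86 counts. No cell held both Gzma and Gzmc, though with so few cells of each their separation was not tested. Ccl5 was found in 2 of the 3 Gzmc-bearing cells in SBM skin and 10 of the 29 in IMQ skin. In the IMQ library 18 of the 29 cells with Gzmc also had Xcl1, 25 had Nkg7 and 18 had Itgae, while 3 had Cd8a or Cd8b1. A gamma chain constant gene had a count in 11 of those 29 cells (37.9%) and in 18 of the 41 with Xcl1 (43.9%), against 41 of all 241 alpha beta T cells of that library, and Trbc1 or Trbc2 in 24 of 29 and 34 of 41. With cells bearing a gamma chain or Trdv4 count left out, the log2 ratios were -2.32 for Gzmc and -2.53 for Xcl1.

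Markers of natural killer and innate lymphoid cells had 434 CPM in SBM skin and 184 CPM in IMQ skin, in 20.3% and 21.2% of the cells. In SBM skin 4 of 8 marker genes had counts and Ncr1, Klrb1c, Klra8 and Klra4 were at 0, and in IMQ skin 7 of 8 had counts. One of these markers, Gata3, is also a T cell gene and made up 302 of the 434 CPM and 120 of the 184 CPM. The part of these markers in the results was not tested. Without cells bearing Mki67 or Top2a the log2 ratio of Gzma was 0.38, that of Ccl5 1.42 and that of Ifng 3.09.

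**Figure D2:**
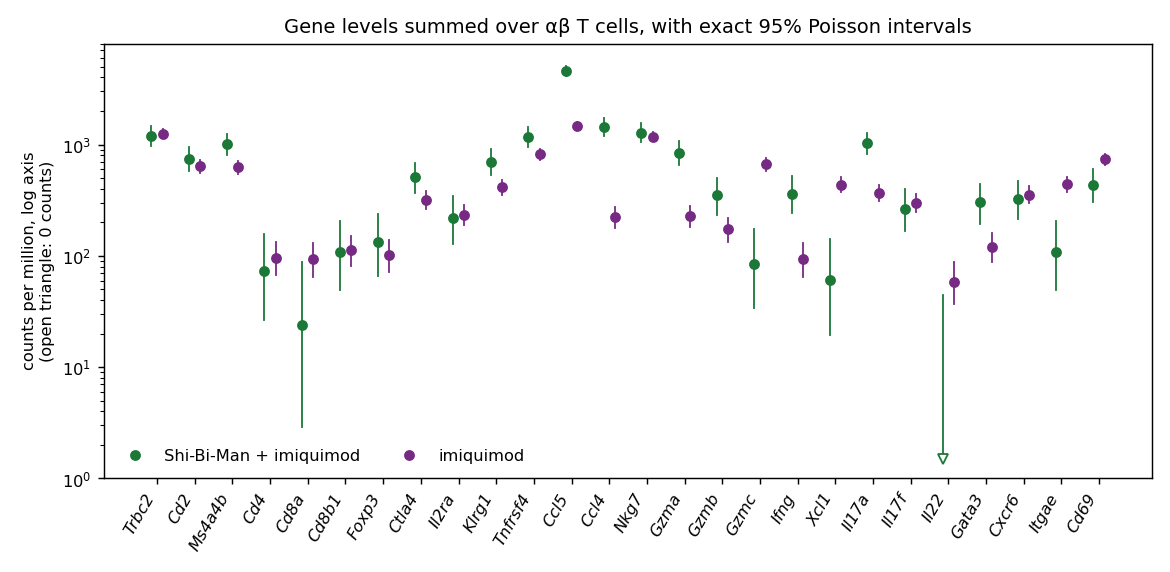
Levels of named genes (CPM, log y axis) in alpha beta T cells of the SBM library (Shi-Bi-Man + imiquimod, green) and the IMQ library (imiquimod, purple), with exact 95% Poisson intervals and an open triangle for 0 counts. Ccl5, Gzma, Ifng and Il17a lie higher in SBM skin, Gzmc, Xcl1 and Itgae lower, and Nkg7, Trbc2, Cd8b1 and Il17f have overlapping intervals.

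Regulatory genes as a list differed little between the libraries. Their summed level was 4571 CPM in SBM skin and 4044 CPM in IMQ skin, a log2 ratio of 0.18 (0.01 to 0.34), with 1 of 15 measured genes higher by 2-fold or more, 1 lower and a median of 0.36. Without the 2 deepest SBM cells the summed ratio was 0.40, without cells bearing Mki67 or Top2a it was -0.15, and with DESeq2 size factors it was -0.00142. Foxp3, the regulatory T cell factor gene, had 11 counts in 7 of 64 cells (10.9%) in SBM skin and 38 counts in 20 of 241 (8.30%) in IMQ skin, at 133 and 101 CPM (0.44, -0.73 to 1.39). Thinned to 500 counts, Foxp3 was found in 4 (6.25%) and 6 (2.49%) cells, a log2 ratio of 1.38 whose interval, -0.94 to 3.40, included 0. Thinned to 1000 counts, with shallower cells left out, the order turned round. Foxp3 was then found in 1 of 23 cells (4.35%) in SBM skin and 9 of 129 (6.98%) in IMQ skin. It had a count in 1 of 1755 and 1 of 969 fibroblasts. Alpha beta T cells held 11 of the 29 Foxp3 counts of the SBM library (37.9%) and 38 of the 65 of the IMQ library (58.5%).

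Cells with Foxp3 often carried other genes of regulatory T cells, though not all of them. Klrg1, a receptor gene of terminally differentiated T cells, had 38 counts in 7 of 7 Foxp3+ cells in SBM skin and 35 counts in 10 of 20 in IMQ skin. Ctla4, the inhibitory receptor gene, was found in 6 of 7 and 14 of 20, Tnfrsf4 in 6 of 7 and 16 of 20, and Il2ra, the IL-2 receptor alpha chain gene, in 4 of 7 and 9 of 20. Nkg7 was found in 0 of 7 and 1 of 20 of them, and Gzma in none. Gzmb was found in 1 of 7 and 8 of 20. Foxp3+ cells were deeper than the rest, with medians of 1873 and 1690.5 counts against 784 and 1049 in cells without Foxp3, and the part of depth in these counts was not tested. A Cd4 count was found in 0 of 7 and 5 of 20. In SBM skin Il10 and Ccr8 were found in 1 of 7 each, and Ikzf2 in 4 of 7. The second deepest SBM cell, which carried keratin counts, was 1 of these 7 and held 8386 of their 16860 counts. It had 1 count of Foxp3, 7 of the 38 of Klrg1 and 6 of the 24 of Ctla4. It was also the only Foxp3+ cell of SBM skin with Il17a, at 1 count.

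Over all alpha beta T cells Ctla4 stood at 507 CPM in 14 cells in SBM skin and 319 CPM in 54 cells in IMQ skin (0.68, 0.12 to 1.18). Klrg1 stood at 700 CPM in 14 cells and 413 CPM in 34 cells (0.77, 0.30 to 1.21), with 38 of 58 and 35 of 155 counts in Foxp3+ cells. Klrg1 also marked other cells, as 3 of the 6 cells with Gzma in SBM skin had it and 1 of 11 in IMQ skin. Neither ratio held in cells with no Mki67 or Top2a count, where Ctla4 was at -0.18 and Klrg1 at -0.62. Tnfrsf4 stood at 1170 and 820 CPM (0.52, 0.17 to 0.85), and Il2ra at 217 and 234 CPM. Il1rl1, the IL-33 receptor gene, had 7 counts in 3 cells and 13 counts in 13 cells (1.33, -0.28 to 2.72), and Itgae was the gene at least 2-fold lower.

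Type 17 genes summed to 3148 CPM in SBM skin and 2676 CPM in IMQ skin, a log2 ratio of 0.24 (0.03 to 0.43). This ratio was 0.56 without the 2 deepest SBM cells and -0.23 in cells with at least 500 detected genes. Of 12 measured genes 1 was higher and 2 were lower by 2-fold or more, with a median of -0.12. The lower ones were Ahr and Tmem176a, since a gene at 0 was counted by its bound. Il17a, the IL-17A gene, stood at 1025 CPM in 9 of 64 cells in SBM skin and 370 CPM in 31 of 241 in IMQ skin (1.47, 1.06 to 1.87). The share of cells with it was close, at 14.1% and 12.9%, and 1 cell held 40.0% of the counts in SBM skin. Thinned to 500 counts these shares were 9.38% and 7.47%. Fibroblasts had Il17a in 0.570% and 4.44%. Il17f stood at 265 and 298 CPM (-0.14, -0.90 to 0.50), and Il22 had 0 counts and 22 counts in 8 cells, at least 1.62-fold lower against a floor of 3 counts.

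The alpha beta cells held 85 of the 875 Il17a counts of the SBM library (9.71%) and 139 of the 18387 of the IMQ library (0.756%), while gamma delta T cells held 61.4% and 83.9%. Cells with Il17a or Il17f numbered 9 of 64 (14.1%) in SBM skin and 46 of 241 (19.1%) in IMQ skin. Trbc1 or Trbc2 was found in 8 of 9 and 36 of 46 of them, and a gamma chain constant gene in 0 of 9 and 11 of 46. Icos, a costimulatory receptor gene, was found in 6 of 9 and 30 of 46, and Cxcr6 in 1 of 9 and 20 of 46. Foxp3 was found in 1 of 9 and 3 of 46.

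**Figure D3:**
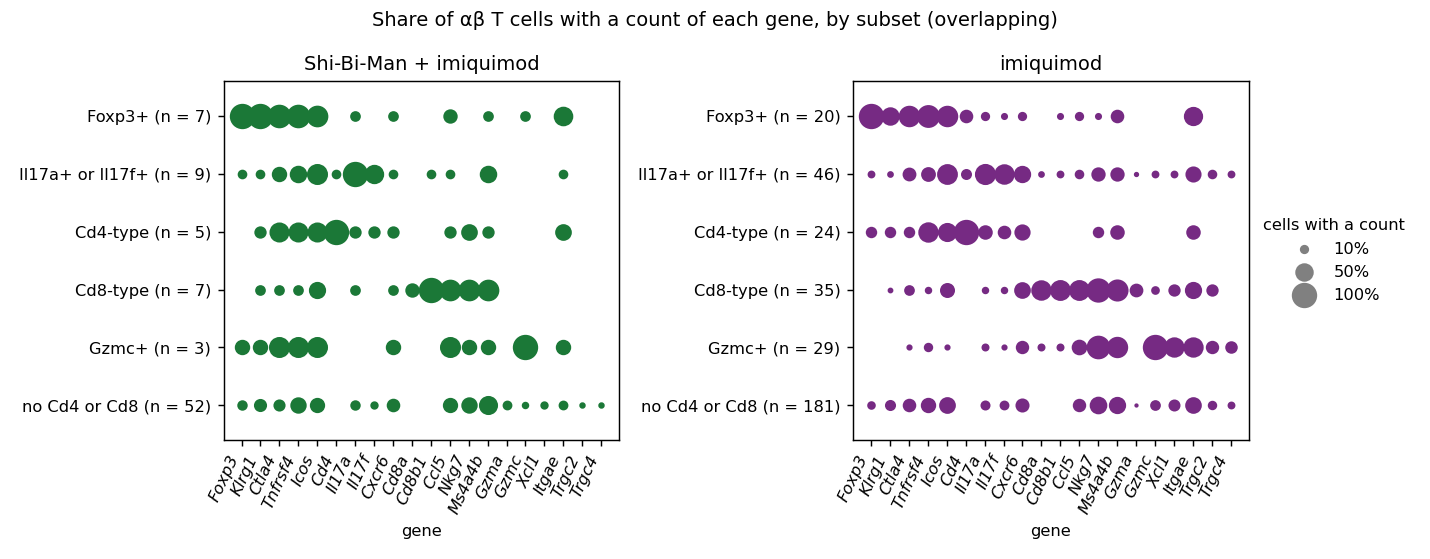
Share of cells with a count of each gene (dot area) in subsets of alpha beta T cells, with the SBM library on the left and the IMQ library on the right; subsets overlap. Foxp3+ cells carry Klrg1, Ctla4 and Tnfrsf4, Cd8-type cells carry Ccl5, Nkg7 and Ms4a4b, and the 29 Gzmc+ cells of the IMQ library carry Nkg7, Xcl1 and Itgae.

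Type 2 genes had 4 measured members, of which 2 were at least 2-fold higher, and summed to 675 CPM in SBM skin and 405 CPM in IMQ skin (0.75, 0.27 to 1.19). The higher genes were Il1rl1, above, and Gata3, the type 2 master regulator. Gata3 stood at 302 CPM in 8 cells in SBM skin and 120 CPM in 33 cells in IMQ skin (1.34, 0.56 to 2.07). Alpha beta T cells held 25 of the 2356 Gata3 counts of the SBM library (1.06%) and 45 of the 2535 of the IMQ library (1.78%). The part of free RNA in the Gata3 ratio was not tested. The 7 Il1rl1 counts in SBM skin all lay in 3 Foxp3+ cells. Il13, a type 2 cytokine gene, had 5 counts in 1 cell and 10 counts in 4 cells.

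Tissue residency genes summed to 5186 CPM in SBM skin and 6012 CPM in IMQ skin (-0.21, -0.37 to -0.06). Of 13 genes 1 was higher and 4 were lower by 2-fold or more. The summed ratio turned to 0.093 without the 2 deepest SBM cells, a setting that left no IMQ cell out and lowered only the SBM total. Itgae stood at 109 CPM in 8 of 64 cells in SBM skin and 442 CPM in 95 of 241 in IMQ skin (-1.95, -3.18 to -1.07). Thinned to 500 counts it was found in 4.69% and 20.3% of cells, with intervals of 0.977% to 13.1% and 15.4% to 26.0% that did not overlap. Cd69, an early activation and residency gene, stood at 434 and 735 CPM (-0.74, -1.30 to -0.25), and Itga1 had 2 counts and 38 counts (-1.77, -5.17 to -0.12). Litaf had 1 count and 82 counts (-3.60, -9.50 to -1.66), a gene also found in 27.1% and 28.5% of fibroblasts. Ahr, a xenobiotic receptor gene, had 1 count and 25 counts. Prdm1, the factor gene Blimp-1, was the gene at least 2-fold higher (1.10, -0.06 to 2.10), and Rgs1 (-0.04), Nr4a1 (0.21) and Cxcr6 (-0.10) lay near 0.

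Genes of naive and recirculating T cells were divided. They summed to 1242 CPM in SBM skin and 950 CPM in IMQ skin (0.39, 0.06 to 0.71), with 2 of 8 genes higher and 2 lower by 2-fold or more. Klf2, a factor gene of circulating T cells, stood at 507 CPM in 13 cells and 208 CPM in 47 cells (1.29, 0.71 to 1.85). Dapl1 had 14 counts in 6 cells and 15 counts in 4 cells (2.08, 0.92 to 3.23). S1pr1, the exit receptor gene that Klf2 is known to control, had 2 counts and 29 counts (-1.38, -4.79 to 0.30).

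Of 8 measured chemokine receptor genes 1 was at least 2-fold higher and none lower. Ccr2, a receptor gene for inflammatory homing, stood at 338 CPM in 14 cells in SBM skin and 95.8 CPM in 30 cells in IMQ skin (1.82, 1.05 to 2.57). Cxcr6, the receptor gene for CXCL16, stood at 326 and 354 CPM (-0.10, -0.78 to 0.48), and Cxcr3 at 72.4 and 101 CPM.

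The remaining lists showed small summed differences. T cell receptor signalling genes had a log2 ratio of 0.07 (-0.07 to 0.20), with 1 of 17 at least 2-fold higher and none lower, and the sign turned with TMM factors (-0.0943). The higher gene was Themis, with 6 and 14 counts. CD4 lineage genes had 1 of 6 higher (summed 0.20, -0.14 to 0.51) and CD8 lineage genes 2 of 5 lower (summed -0.46, with an interval that included 0), and those were Klrd1 and Cd8a. None of 11 activation and checkpoint genes was past 2-fold (0.10, -0.07 to 0.27). Interferon response genes had 1 of 7 higher, Isg15 (1.10), and 1 lower, Bst2 (-1.13), and summed to -0.16 (-0.45 to 0.12). The Isg15 ratio was -0.057 with at least 500 detected genes and -0.36 with at least 2 Trac counts.

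Proliferation genes had 2 of 21 at least 2-fold lower, Nusap1 and Birc5, and summed to -0.06 (-0.22 to 0.09). Mki67 or Top2a had a count in 12 of 64 cells (18.8%) in SBM skin and 64 of 241 (26.6%) in IMQ skin. Genes of the dissociation response had 1 of 11 lower, Fos (-1.03, -1.51 to -0.60), and summed to -0.18 (-0.29 to -0.07), a sum that was 0.0093 in cells with no Lyz2 count.

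**Figure D4:**
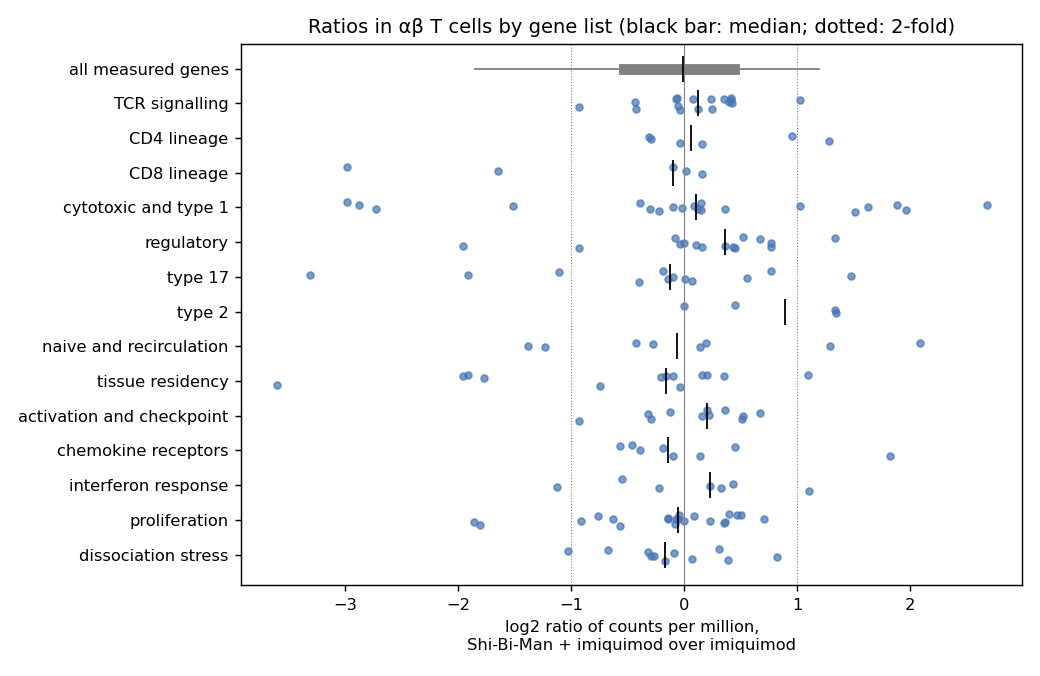
Log2 ratios of CPM in alpha beta T cells, SBM over IMQ (x axis), for each measured gene (blue point) of 14 gene lists, with the list median as a black bar and dotted lines at 2-fold. The top row gives all 4053 measured genes by their median, middle range (thick bar, 25th to 75th percentile) and wide range (thin line, 5th to 95th percentile); cytotoxic and type 1 genes spread in both directions, while activation genes stay within 2-fold.

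The most extreme ratios were mostly of genes outside the T cell lists. Serpina3b (5.03), Paqr7 (4.61), Hsd3b6 (3.09), Prxl2a (2.82), Fam25c (2.75), Soat1 (2.71), Ccl4 (2.68) and Mgst1 (2.59) were the highest, and 1 cell held 66.7% to 98.7% of the SBM counts of each. At the other end Gpx3, Rgs5, S100a8, Col6a2, Elovl7, C3, Col6a1 and Fn1 had 0 counts in SBM skin and 46 to 146 in IMQ skin, at least 3.38-fold to 10.7-fold lower against a floor of 3 counts. For Rgs5 and Elovl7, 1 cell held 98.7% and 91.2% of the IMQ counts. Rgs5 is known from pericytes, S100a8 from neutrophils and keratinocytes, and Col6a1, Col6a2 and Fn1 from fibroblasts.

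Transcripts of other cells differed between the libraries in these cells. Keratinocyte markers, with 8 of 8 genes detected in each, stood at 7321 CPM in SBM skin and 5128 CPM in IMQ skin. Fibroblast markers stood at 1942 and 4963 CPM, and Langerhans and dendritic markers at 1049 and 3269 CPM, with Cd207 at 0 in the SBM cells. Erythroid genes stood at 12.1 CPM in 1 of 64 cells and 4784 CPM in 114 of 241 cells, and neutrophil markers at 0 and 240 CPM. Macrophage and monocyte markers stood at 121 and 226 CPM, B and plasma cell markers at 84.4 and 130 CPM with Cd79a and Ms4a1 at 0 in both, and mast cell markers at 24.1 and 26.6 CPM. Endothelial markers stood at 36.2 and 429 CPM. Haemoglobin also differed in fibroblasts, at 23.8 and 2832 CPM. In gamma delta T cells the levels were closer, at 3354 CPM in SBM skin and 4350 CPM in IMQ skin. The SBM counts of these lay in 8 cells (2.93%), against 821 cells (46.5%) in IMQ skin. The part of these transcripts in the ratios was not tested.

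Set against gamma delta T cells of the same library, 132 of 8106 genes (1.63%) were higher by 2-fold or more and 81 (0.999%) were lower in alpha beta T cells in both libraries, with genes at 0 counted by their bound. Since receptor chains chose both populations, these values are a description. Foxp3 stood at 133 CPM in alpha beta and 0 in gamma delta T cells in SBM skin, and at 101 and 1.39 CPM in IMQ skin. Klrg1 stood at 700 and 10.9 CPM in SBM skin, and at 413 and 2.08 CPM in IMQ skin. Gzma stood at 844 and 5.46 CPM, and at 229 and 2.78 CPM, in the same order. Cd8b1, Tnfrsf4, Ly6c2, Cxcr3 and Cd28, the costimulatory receptor gene, completed the highest genes.

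Gene lists differed in how they fell. Of 22 cytotoxic and type 1 genes measured for this comparison, 10 were at least 2-fold higher in alpha beta T cells in both libraries. None was lower in both. Of 16 regulatory genes 7 were higher and 1 lower in both. Of 17 type 17 genes none was higher and 5 were lower in both. The median log2 ratio of the cytotoxic and type 1 genes was 0.18 in SBM skin and 2.36 in IMQ skin. Nkg7 had a count in 27 of 64 alpha beta T cells of SBM skin and 118 of 241 of IMQ skin. Among gamma delta T cells not labelled IL-17-type, Nkg7 was found in 110 of 175 and 121 of 480. Xcl1 was found in 4 and 41 of these alpha beta T cells, against 94 and 48 of these gamma delta T cells. Among the lowest genes, Il23r, the IL-23 receptor gene, stood at 12.1 CPM in alpha beta and 120 CPM in gamma delta T cells in SBM skin, and at 26.6 and 151 CPM in IMQ skin. The others were Trdv4 and Trgc1, receptor chain genes, and Avil, Gnai1, Ctnnd2, Myo16 and Bcl2a1a. Bcl2a1a in SBM skin and Ctnnd2 in IMQ skin had 0 counts in alpha beta T cells, with intervals of the ratio that included 0.

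**Figure D5:**
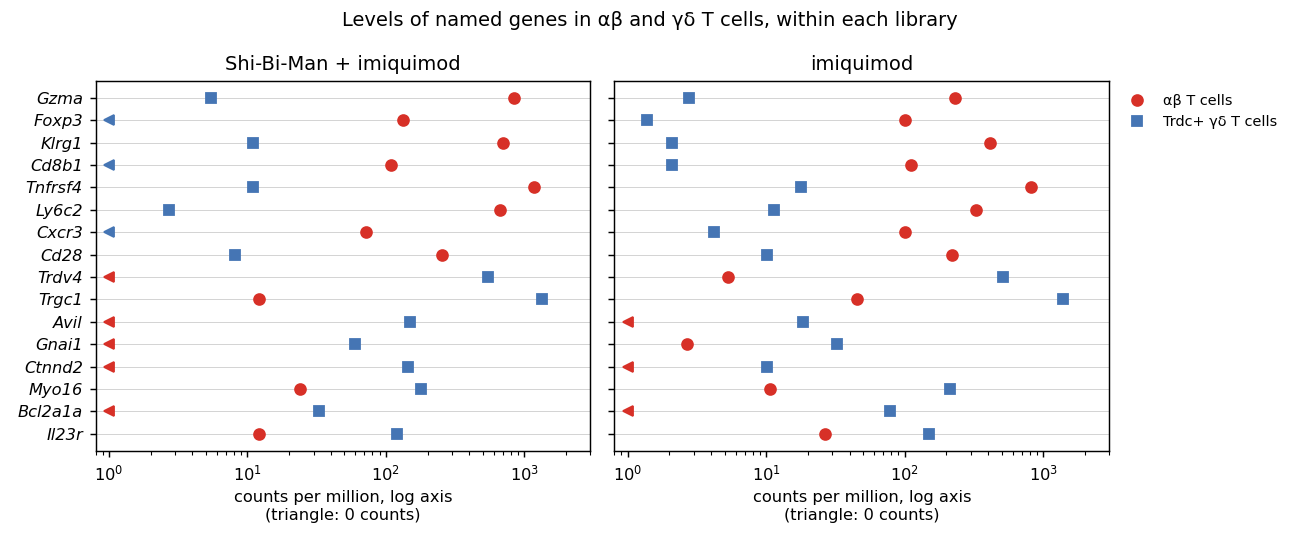
CPM (log x axis) of 16 genes chosen for the highest and lowest ratios in alpha beta T cells (red circles) over gamma delta T cells (blue squares), with the SBM library on the left, the IMQ library on the right and triangles for 0 counts. The upper 8 genes, Gzma to Cd28, lie higher in alpha beta T cells in both libraries. The lower 8, Trdv4 to Il23r, lie lower, except that the intervals for Bcl2a1a in SBM skin and Ctnnd2 in IMQ skin included no difference.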

How the data were processed

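Per the labels, RNA of cells from dorsal skin was sequenced from the 3' end. The authors deposited 1 matrix per library that holds counts, whole numbers of a gene in a cell barcode. The submitters' processing notes name the builds mm10 and GRCm38. The aligner, the cell calling and whether molecular identifiers were collapsed are not given in the sources used here. Cells with at least 200 detected genes and at most 20% mitochondrial counts were retained. Counts of the alpha beta T cells were summed per library and scaled to CPM of their total. Intervals are exact (Poisson for CPM, Clopper-Pearson for shares, conditional binomial for ratios) and use the counts as they are. The ratios themselves had 0.5 added to each count. A gene was measured at 20 or more counts over both libraries, and a gene at 0 was set against a floor of 3 counts. Shares across depths were repeated after thinning each cell to 500 counts, and to 1000 counts in cells that deep. Gamma delta T cells had at least 1 Cd3 and 1 Trdc count and at most 2 Lyz2 counts. Fibroblasts had at least 5 counts of Col1a1, Col1a2 and Dcn and none of Ptprc, Cd3, Krt5 or Krt14. Doublets were called with Scrublet in scanpy 1.11.5 and none were removed. Symbols came from the files, and 99.6% of gene identifiers were in the GENCODE annotation used for coordinates.

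Counts were summed with Python 3.11.15, numpy 2.4.6 and scipy 1.17.1. As alternatives, TMM factors came from edgeR 4.0.16 and size factors from DESeq2 1.42.0, used for scaling only and with no count test, since each group was 1 library. The interval and ratio code was tested on simulated counts. The alpha beta T cells and the gene lists were chosen with earlier results of these data known. Named genes were a fixed set, up to 4 measured genes of largest ratio per list, the 8 highest and lowest ratios of all genes with 30 or more counts, the 8 highest and lowest against gamma delta T cells with 50 or more counts, and the 6 each way between Cd4-type and Cd8-type cells. Genes named as carried by a subset of cells, among them Icos, Trgc2 and Trgc4, were chosen after their values were seen.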

Additional observations from a re-analysis of the deposited data

Results flagged for a closer look

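Among the named genes, 13 had log2 ratios of SBM over IMQ of opposite signs in alpha beta and gamma delta T cells, with neither counting interval including 0. Some of the named genes were picked for their large alpha beta ratios. The share of all measured genes that did so was not counted, so the number 13 is not a result. Each group was 1 library, so the difference between the cell types was not tested. The make-up of the gamma delta T cells also differed between the libraries. Cells labelled IL-17-type were 98 of 273 in SBM skin and 1286 of 1766 in IMQ skin, and the rest, 175 and 480, were labelled other. The part of this mix in the gamma delta ratios was not tested.

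Among effector genes, Il17a was at 1.47 in alpha beta and -1.87 in gamma delta T cells. Gzmc was at -2.88 in alpha beta and 0.74 in gamma delta T cells, Xcl1 at -2.72 and 3.89, and Klrd1 at -2.98 and 1.82, in the same order. In gamma delta cells labelled other, Xcl1 had a count in 94 of 175 in SBM skin and 48 of 480 in IMQ skin. Gzmc had one in 12 and 31 of them, and Il17a in 22 and 254. In the IL-17-type, Xcl1 had a count in 3 of 98 and 22 of 1286 cells, Gzmc in 0 and 29, and Il17a in 47 and 1068. Ctla4 was at 0.68 in alpha beta and -2.76 in gamma delta T cells, the second from 2 and 133 counts. Ms4a4b was at 0.70 in alpha beta and -0.94 in gamma delta T cells, and Ccr2 at 1.82 and -1.05.

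Among residency and early response genes, Litaf was at -3.60 in alpha beta and 0.69 in gamma delta T cells, Fos at -1.03 and 0.29, and Jun at -0.67 and 0.28. The genes whose alpha beta counts lay mostly in 1 cell were also among the 13: Prxl2a at 2.82 in alpha beta and -0.65 in gamma delta T cells, Soat1 at 2.71 and -1.47, and Mgst1 at 2.59 and -1.17. Without the 2 deepest SBM cells the alpha beta values took the gamma delta sign for Soat1 (-0.67) and Mgst1 (-0.83), and Prxl2a was at 0.83 with an interval that included 0.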

How the results depend on the processing

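Each group was 1 library, so no replicate was left out. No paired analysis was possible because each group was 1 library and no result came from a test. Depth limits the shares of sparse genes such as Cd4, Cd8b1 and Foxp3, whose intervals spanned 0 as ratios under thinning. Of the values that answer a comparison, 224 stayed within counting error of the first value under the alternatives, 36 moved beyond it and 6 whose first interval excluded 0 turned in sign, and for none was the cause tested.

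The share of retained cells moved to -2.03 with at least 500 detected genes. The summed cytotoxic and type 1 log2 ratio, 0.69, was 1.13 with at least 2 Trac counts, 0.42 with Trbc1 or Trbc2 required, 0.82 with Lyz2 at 0, 0.80 at up to 5000 counts per cell, 0.84 without gamma chain counts, 1.05 without the 2 deepest SBM cells, 0.52 without Mki67 or Top2a, 0.53 with TMM and 0.51 with DESeq2 factors. The regulatory ratio turned to -0.20 with 2 Trac counts, -0.15 without Mki67 or Top2a and -0.00142 with DESeq2 factors, and was 0.40 without the 2 deepest cells. The type 17 ratio turned to -0.23 with 500 genes, and was 0.56 without the 2 deepest cells and 0.51 with each cell weighted equally. The residency ratio turned to 0.093 without the 2 deepest cells, and was -0.38 with TMM and -0.39 with DESeq2 factors. The receptor signalling ratio was -0.11 with Trbc1 or Trbc2 required, 0.37 without the 2 deepest cells, -0.0943 with TMM and -0.11 with DESeq2 factors. The activation ratio was -0.079 with 500 genes, -0.18 with 2 Trac counts, 0.34 without the 2 deepest cells and -0.077 with DESeq2 factors. The interferon ratio was 0.13 without the 2 deepest cells. The proliferation ratio was 0.15 with 500 genes, 0.14 at up to 5000 counts, 0.13 without gamma chain counts, 0.23 without the 2 deepest cells, 0.23 without Mki67 or Top2a, -0.23 with TMM and -0.24 with DESeq2 factors. The dissociation ratio was -0.30 with 500 genes, -0.53 with 2 Trac counts, -0.34 with Trbc1 or Trbc2 required, -0.34 with TMM and -0.36 with DESeq2 factors, and turned to 0.0093 with Lyz2 at 0, where its median was 0.059.

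Single genes turned sign in 16 further cases. Isg15 was at -0.057 with 500 genes and -0.36 with 2 Trac counts. Soat1 was at -0.75 and Mgst1 at -0.55 with Lyz2 at 0, -0.36 and -0.34 at up to 5000 counts, and -0.67 and -0.83 without the 2 deepest cells, which also gave Serpina3b at -0.25 and Hsd3b6 at -0.50. Without Mki67 or Top2a, Ctla4 was at -0.18, Klrg1 at -0.62, Nusap1 at 0.79, Birc5 at 0.43 and Rgs5, whose counts then were at or under the floor, at 0.43. Klrg1 was at -0.029 with each cell weighted equally. Leaving out the 2 deepest cells and leaving out cells with Mki67 or Top2a were chosen after seeing the data. The 2 deepest cells left out were those of the SBM library, and no IMQ cell was left out with them.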

Other observations

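Cells with no count of Foxp3, Il17a, Il17f, Ccl5, Nkg7, Gzma, Cd4, Cd8a or Cd8b1 numbered 15 of 64 (23.4%) in SBM and 52 of 241 (21.6%) in IMQ. Receptor variable segments were almost unseen in these 3' counts. Alpha variable segments had 3 counts and 5 counts, and beta variable segments 3 and 9 counts, in the same order, so clones could not be followed.

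The part of each library's transcripts that lay in alpha beta T cells differed between genes. Alpha beta T cells held 15.3% of the Ccl5 counts in SBM and 25.6% in IMQ, and 15.9% and 36.6% of the Gzma counts. Of Klrg1 they held 32.4% and 50.8%, and of Tnfrsf4 34.3% and 36.4%. Gamma delta T cells held 49.8% and 26.6% of the Nkg7 counts, against 11.6% and 25.0% in alpha beta T cells.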
